A study of Mus musculus with 16 samples.

Results

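Complement and coagulation proteins circulate in blood plasma and are made mainly by hepatocytes, the parenchymal cells of the liver. A list of 38 such genes was followed in the livers and liver tumours of MYC-transgenic mice, chosen by gene symbol and not by measured values. A gene was represented by its array row with exactly 1 gene symbol, and by the row of highest mean over the 16 arrays where several existed. Of the 38 genes, 34 had such a row, and all 34 were among the 13555 genes tested, out of 22180 genes with a row. Klkb1 and Masp2 shared a row with another gene, and Cpb2 and C3 had none, so these 4 genes were not analysed here.

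Coagulation is a cascade of plasma proteases in which each enzyme activates the next, until thrombin (from F2) cuts fibrinogen into fibrin. F2, F7, F9 and F10, together with the anticoagulants Proc, Pros1 and Proz, carry glutamate residues that a vitamin K dependent carboxylase of the liver modifies, and they need this change to bind membranes. Complement is a second protease cascade, started by antibodies, by lectins that bind microbial sugars, or by an alternative loop, and it ends in a pore built from C5 to C9. In mouse the symbol Hc stands for complement C5. Many of these genes also respond to inflammation, since the liver changes its secreted proteins in the acute phase response.

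The arrays cover 8 mice on a C57BL/6J background, each 18 months old. In 4 of them, called MYC mice and given the genotype MYC+/+, REG3A-/- by the labels, the c-MYC oncogene is expressed in liver under woodchuck hepatitis virus control. The other 4, called MYC/REG3A mice (MYC+/+, REG3A+/+), carry the same oncogene and a transgene for the secreted lectin REG3A, whose promoter the labels do not name; the transgene's own transcript was not analysed here. Liver was dissected into a tumour and a non-tumour sample per animal, so that 4 groups of 4 arrays resulted. Both tissues of both genotypes carry the MYC transgene, and no liver without it entered any comparison. Values are log2 expression levels, and a change is the log2 level in the tumour minus that in the non-tumour liver of the same mouse. The tumours of MYC/REG3A mice 2 and 4 stood apart from the other 6: on the first principal component they lay at -4.21 and 2.55, against 32.7 to 42.3 for the other tumours and -31 to -26.4 for the non-tumour livers. Over all tested genes, the SD of the change was 0.336 and 0.429 in these mice and 0.624 to 0.729 in the other 6.

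Promoter sequences are shown for the 5 genes with a row whose promoter held the C/EBP motif described below. The 250 bases before the start of 30 of the 38 genes (31 promoters) were read from RefSeq sequences of build GRCm38.p6. A motif of C/EBP factors, which take part in the acute phase response of the liver, was searched on both strands as TTGCNNAA, and 7 of the 31 promoters (22.6%) held it, against 9.56% of all 32851 promoters in the table. The windows below hold that motif (or its reverse complement) in capitals, in F11, which fell in tumours, and in Fga, Fgb and C9, which passed no test. They were chosen after the matches and the changes were seen. Fga and Fgb lie close together on chromosome 3.
F11, chr8:45262032-45262064, minus strand: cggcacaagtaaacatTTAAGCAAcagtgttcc
Fga, chr3:83026002-83026041, plus strand: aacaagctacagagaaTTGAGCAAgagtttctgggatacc
Fgb, chr3:83049920-83049959, minus strand: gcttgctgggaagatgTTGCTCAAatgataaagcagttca
C9, chr15:6445198-6445237, plus strand: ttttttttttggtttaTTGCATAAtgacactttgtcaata
The F9 promoter is shown because F9 fell in both genotypes and because it held, close to the start, a C/EBP motif and a motif of HNF4 (CAAAGTNCA), a nuclear receptor of hepatocytes. Both are in capitals, the HNF4 motif on the opposite strand. The window also holds a match to the STAT3 motif given below, 82 to 74 bases before the start, left in small letters.
F9, chrX:59999364-59999463, plus strand: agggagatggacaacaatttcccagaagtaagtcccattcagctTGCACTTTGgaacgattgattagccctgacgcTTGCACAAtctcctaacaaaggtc
The HNF4 motif stood in 1 of the 31 promoters (3.23%, all promoters 1.19%). A motif of ONECUT factors (TATTGAT) stood in 3 (9.68%, all 1.86%), and a motif of STAT3 (TTCNNNGAA) in 6 (19.4%, all 7.02%). The motifs can overlap one another. The E-box CACGTG, a motif that MYC can bind, stood in 0 of the 31 promoters and in 6.02% of all. These are matches of letters within one window, given as a description.

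In MYC mice, 13 of the 34 genes were lower in tumours and 0 were higher (limma with the mouse as a block, Benjamini-Hochberg adjusted p below 0.05 over all tested genes). By the same rule 33.2% of all tested genes were called, 15.8% lower and 17.4% higher. The 13 genes were C8a, Mbl1, F5, F9, Proz, F11, Cfb, C4bp, F7, C2, Serping1, Cfi and Hc, so they came from both cascades: 7 of the 13 complement genes with a row and 6 of the 21 others. The median change of the 34 genes was -0.26, against -0.03 over all tested genes. Tumour and non-tumour groups did not overlap for 11 genes, all lower in tumours, where 14.1% of all tested genes had such groups in this direction. In all 4 mice the tumour was lower for 17 of the 34 genes and higher for 1, Mbl2; over all tested genes the shares were 23.6% and 23.4%.

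In MYC/REG3A mice, 9 of the 34 genes were lower in tumours and 1, Pros1, was higher. The background was 12.5% called, 4.88% lower and 7.58% higher. The 9 genes were Mbl1, F11, F9, Proz, Cfb, F7, C2, Hc and Cfi, and each of them was also lower in MYC mice, so that the shared genes made up 100% of this list and 69.2% of the list in MYC mice. The median change was -0.31, against -0.02 over all tested genes, and 31 of the 34 genes lay below 0. Groups did not overlap for 9 genes, again all lower in tumours (all tested genes 8.29% lower and 11.2% higher). In all 4 mice the tumour was lower for 20 of the 34 genes and higher for 1, Pros1, against 20.9% and 19.5% of all tested genes. The number of calls changed when single animals were left out. Without MYC/REG3A mouse 1, 0 of the 34 genes passed (2.07% of all tested genes did), and their median change was -0.20, with 30 below 0. Without mouse 3, 0 passed (2.01% of all), while the median change was -0.36, with 32 below 0. Without mouse 4, 5 passed (6.96% of all), and without mice 2 and 4 together, 9 passed (10.03% of all).

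**Figure D1:**
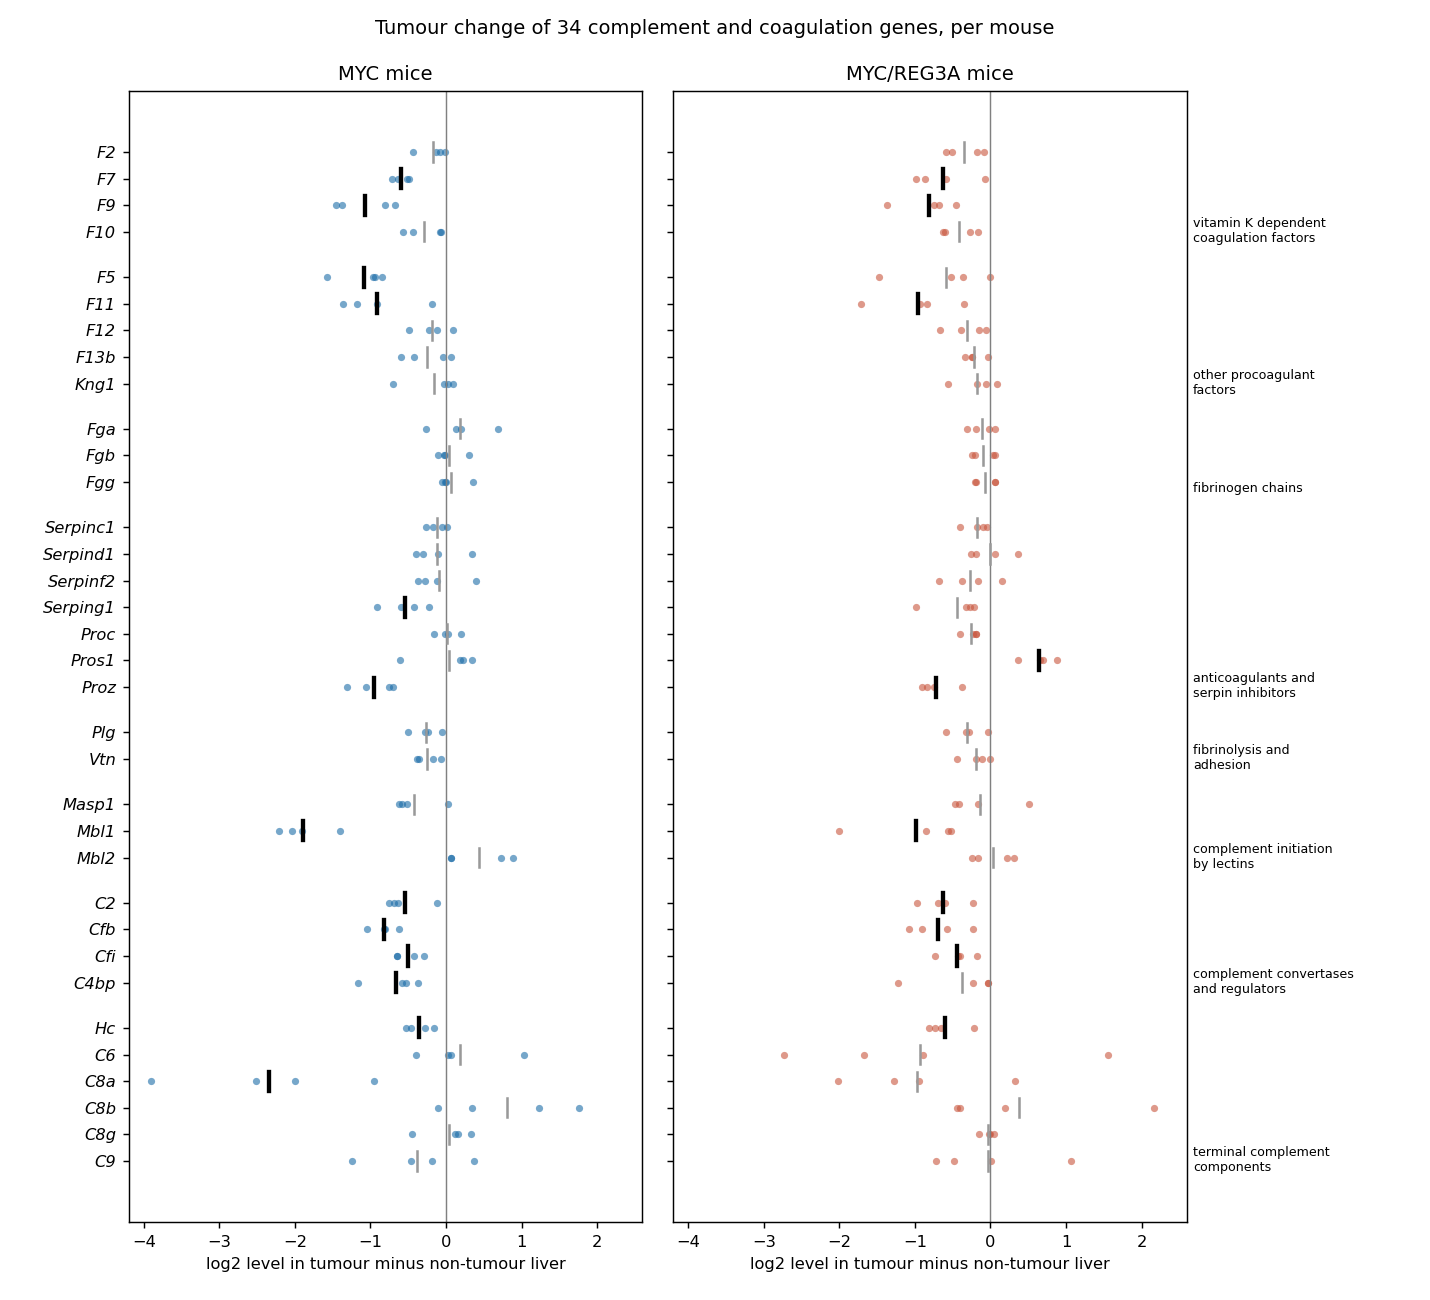
Change of each of the 34 genes, as the log2 level in the tumour minus that in the non-tumour liver, with 1 point per mouse (4 MYC mice on the left, 4 MYC/REG3A mice on the right). Vertical bars are means, thick and black where the adjusted p was below 0.05; 13 black bars lie left of 0 in MYC mice, and in MYC/REG3A mice 9 lie left of 0 and 1, Pros1, to its right.

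Among the vitamin K dependent procoagulant factors, F9 and F7 fell in both genotypes, while F10 and F2 passed the test in neither. F9 encodes factor IX, the protease that is lacking in haemophilia B. In MYC mice 1 to 4, F9 had log2 levels of 10.26, 10.45, 10.48 and 10.68 in non-tumour liver and of 8.88, 9.78, 9.02 and 9.88 in tumours. The livers of MYC/REG3A mice 1 to 4 had 10.72, 10.55, 10.46 and 10.63, and their tumours 9.35, 10.10, 9.77 and 9.88. Every tumour lay below every non-tumour liver in either genotype. The change of F9 was -1.08 (SE 0.18, n = 4 mice, adjusted p = 0.00228 with limma), which left 47.4% of the non-tumour level, and it was -0.82 (SE 0.18, n = 4, adjusted p = 0.0199 with limma) in MYC/REG3A mice.

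F7 encodes factor VII, which starts coagulation when it meets tissue factor. In MYC mice its levels were 10.12, 10.44, 10.44 and 10.60 in non-tumour liver and 9.63, 9.92, 9.80 and 9.89 in tumours, with no overlap. MYC/REG3A mice had 10.63, 10.43, 10.32 and 10.79 in non-tumour liver and 9.76, 10.36, 9.73 and 9.81 in tumours. Here the groups overlapped through the tumour of mouse 2, which lay above the non-tumour liver of mouse 3. F7 changed by -0.59 (SE 0.14, adjusted p = 0.012 with limma) and by -0.63 (SE 0.14, adjusted p = 0.0235). F10, the factor on which both starting routes converge, had changes of -0.29 (95% interval -0.57 to -0.01, adjusted p = 0.103) and -0.41 (-0.69 to -0.13, adjusted p = 0.0584). F2 had changes of -0.17 (-0.43 to 0.10) and -0.35 (-0.61 to -0.08, adjusted p = 0.0839).

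Of the other procoagulant factors, F11 fell in both genotypes and F5 in MYC mice. F5 encodes factor V, the cofactor with which factor Xa turns prothrombin, the product of F2, into thrombin. Its levels in MYC mice were 11.28, 11.44, 11.34 and 11.45 in non-tumour liver and 9.71, 10.59, 10.41 and 10.49 in tumours. For MYC/REG3A mice they were 11.54, 11.52, 11.30 and 11.43 in non-tumour liver and 10.06, 11.16, 10.78 and 11.43 in tumours. The fall was present in all 4 MYC mice, whereas the tumour of MYC/REG3A mouse 4 lay at the level of its non-tumour liver. F5 changed by -1.08 (SE 0.21, adjusted p = 0.00477 with limma), to 47.3% of the non-tumour level. The change of -0.59 (SE 0.21) in MYC/REG3A mice had an adjusted p of 0.0942.

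F11 encodes factor XI, which activates factor IX. Non-tumour livers of MYC mice had levels of 8.39, 8.74, 8.23 and 9.18, and their tumours 7.48, 7.57, 8.05 and 7.82. Non-tumour livers of MYC/REG3A mice had levels of 9.45, 9.13, 8.51 and 9.13, and their tumours 7.73, 8.79, 7.67 and 8.20. The groups were separate in MYC mice and overlapped in MYC/REG3A mice through the tumour of mouse 2. The changes of F11 were -0.91 (SE 0.23, adjusted p = 0.0142 with limma) and -0.96 (SE 0.23, adjusted p = 0.0268). F12, F13b and Kng1, which encode factor XII, the carrier subunit of factor XIII and kininogen, passed the test in neither genotype. Their changes lay between -0.32 (F12 in MYC/REG3A mice) and -0.15 (Kng1 in MYC mice).

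The 3 fibrinogen chain genes Fga, Fgb and Fgg passed no test. Their changes were 0.19, 0.04 and 0.07 in MYC mice and -0.12, -0.09 and -0.07 in MYC/REG3A mice. Fga had log2 levels of 11.34, 11.93, 11.57 and 11.999 in the non-tumour livers of MYC mice and of 12.03, 11.67, 11.70 and 12.20 in their tumours. For MYC/REG3A mice the levels were 12.15, 11.58, 11.62 and 11.79 in non-tumour liver and 11.84, 11.64, 11.60 and 11.60 in tumours. Levels of the tissues were interleaved in both genotypes, and no direction was shared by the 4 mice of either. The 95% interval of the Fga change ran from -0.13 to 0.51 in MYC mice (adjusted p = 0.337 with limma) and from -0.44 to 0.21 in MYC/REG3A mice (adjusted p = 0.631). Levels of Fgb and Fgg reached 13.29, near the highest values of any array row (13.55 to 13.68), where the scale can hide differences. This does not hold for Fga.

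Anticoagulants and protease inhibitors went different ways. Proz, Serping1 and Pros1 passed a test in at least 1 genotype, and Serpinc1, Serpind1, Serpinf2 and Proc in neither. Proz encodes protein Z, the cofactor with which its inhibitor blocks factor Xa. Proz levels in MYC mice were 10.83, 11.16, 10.70 and 11.18 in non-tumour liver and 10.13, 10.10, 9.95 and 9.87 in tumours. MYC/REG3A mice had 11.15, 11.19, 11.01 and 11.20 in non-tumour liver and 10.24, 10.82, 10.17 and 10.46 in tumours. Tumours lay below non-tumour livers without overlap in both genotypes. Proz changed by -0.96 (SE 0.13, adjusted p = 0.0012 with limma), to 51.6% of the non-tumour level, and by -0.72 (SE 0.13, adjusted p = 0.012).

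Pros1, which encodes protein S, the cofactor of activated protein C, was the one gene of the 34 called higher in tumours. In MYC/REG3A mice 1 to 4 its levels were 8.90, 8.27, 8.03 and 8.56 in non-tumour liver and 9.55, 8.64, 8.92 and 9.25 in tumours. In MYC mice 1 to 4 they were 8.37, 8.30, 8.88 and 8.63 in non-tumour liver and 7.76, 8.65, 9.07 and 8.86 in tumours. Each MYC/REG3A tumour lay above the liver of its own mouse, with overlap between the groups, and 3 of the 4 MYC tumours did so by less. Pros1 changed by 0.65 (SE 0.16, adjusted p = 0.0297 with limma) in MYC/REG3A mice and by 0.04 (SE 0.16, adjusted p = 0.882) in MYC mice. The difference of these changes was 0.61 (95% interval 0.11 to 1.11), with an adjusted p of 0.873. The rise lost its call without the mouse block (adjusted p = 0.126) and without MYC/REG3A mouse 1, 3 or 4 (adjusted p = 0.114, 0.136 and 0.081).

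Serping1 encodes the C1 inhibitor, which blocks the first complement proteases as well as factor XIIa and kallikrein. It fell by 0.54 on the log2 scale in MYC mice (SE 0.15, adjusted p = 0.0239 with limma), and its change in MYC/REG3A mice was -0.45 (SE 0.15, adjusted p = 0.0813). The Serping1 call in MYC mice was lost in 3 of 18 other settings and left-out mice. Serpinc1, which encodes antithrombin, was among the steadiest genes of the list. Its levels spanned 0.11 over the 8 non-tumour livers, and its changes were -0.12 (95% interval -0.34 to 0.10) and -0.18 (-0.40 to 0.04). Serpind1 (heparin cofactor II), Serpinf2 (the plasmin inhibitor) and Proc (protein C) had changes between -0.27 and 0.01.

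Plg and Vtn, the plasminogen and vitronectin genes, passed no test. In MYC mice Plg had levels of 12.22, 12.39, 12.43 and 12.55 in non-tumour liver and of 12.16, 11.88, 12.19 and 12.28 in tumours. Levels in MYC/REG3A mice were 12.66, 12.42, 12.45 and 12.55 in non-tumour liver and 12.07, 12.38, 12.12 and 12.27 in tumours. Every tumour lay below the liver of its own mouse, and the groups did not overlap in MYC/REG3A mice. The changes of Plg were small, -0.27 (95% interval -0.53 to -0.01, adjusted p = 0.0988 with limma) and -0.31 (-0.57 to -0.05, adjusted p = 0.106). Those of Vtn were -0.24 and -0.19, again on levels near the top of the scale.

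Mice have a pair of genes for mannose-binding lectin, which binds microbial sugars and starts complement through the MASP proteases, and Mbl1 fell while Mbl2 passed no test. Mbl1 had levels of 9.81, 9.97, 10.37 and 10.66 in the non-tumour livers of MYC mice and of 7.77, 8.57, 8.46 and 8.46 in their tumours. In MYC/REG3A mice it had 10.85, 9.71, 9.98 and 10.48 in non-tumour liver and 8.85, 9.19, 9.13 and 9.91 in tumours. All MYC tumours lay more than 1 log2 unit below every MYC non-tumour liver, while the MYC/REG3A groups overlapped through the tumour of mouse 4. Mbl1 changed by -1.89 (SE 0.23, adjusted p = 0.00087 with limma), to 27.0% of the non-tumour level, and by -0.98 (SE 0.23, adjusted p = 0.0256), to 50.5%. The difference between the genotypes' changes was 0.90 (95% interval 0.18 to 1.63, adjusted p = 0.873).

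Mbl2 did not follow Mbl1, a contrast chosen after the values were seen. Its levels were 8.71, 9.50, 9.54 and 9.29 in the non-tumour livers of MYC mice and 9.60, 10.22, 9.61 and 9.35 in their tumours. Its change was 0.44 in MYC mice (95% interval 0.07 to 0.80, adjusted p = 0.0665 with limma) and 0.03 in MYC/REG3A mice (-0.34 to 0.40). With each array's median subtracted, Mbl2 passed the test as higher in MYC tumours (adjusted p = 0.0471). Within each of the 8 mice the change of Mbl2 exceeded that of Mbl1, by 0.40 to 2.93. Masp1, the protease gene of the lectin route with a row of its own, had changes of -0.42 (adjusted p = 0.086) and -0.14.

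All 4 measured genes of the C3 convertases and their regulators fell in MYC mice, and Cfb, C2 and Cfi also fell in MYC/REG3A mice. Factor B (Cfb) and C2 are the protease subunits of the alternative and the classical convertase. Cfb levels in MYC mice were 11.38, 11.10, 11.36 and 11.29 in non-tumour liver and 10.34, 10.49, 10.55 and 10.46 in tumours. MYC/REG3A mice had 11.40, 11.07, 11.16 and 11.50 in non-tumour liver and 10.32, 10.84, 10.26 and 10.92 in tumours. No tumour reached the lowest non-tumour liver of its genotype. Cfb changed by -0.82 (SE 0.14, adjusted p = 0.00274 with limma) and by -0.70 (SE 0.14, adjusted p = 0.0166).

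C2, the neighbour of Cfb on chromosome 17, had levels of 9.76, 9.48, 9.49 and 9.73 in the non-tumour livers of MYC mice and of 9.01, 8.79, 9.37 and 9.09 in their tumours. MYC/REG3A livers had 9.82, 9.68, 9.58 and 9.85, and their tumours 8.85, 9.45, 8.98 and 9.15. The groups were separate in both genotypes, though by little. C2 changed by -0.55 (SE 0.14, adjusted p = 0.0165 with limma) and by -0.63 (SE 0.14, adjusted p = 0.0241). Its call was lost in 3 of 18 other settings and left-out mice in MYC mice, and in 4 of 19 in MYC/REG3A mice.

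C4bp encodes the C4b-binding protein, which dismantles the classical convertase together with the protease factor I (Cfi). Levels of C4bp in MYC mice were 11.05, 11.25, 11.53 and 11.50 in non-tumour liver and 10.68, 10.72, 10.36 and 10.92 in tumours. For MYC/REG3A mice they were 11.93, 11.13, 11.02 and 11.55 in non-tumour liver and 10.71, 10.91, 10.995 and 11.52 in tumours. The MYC groups were separate, and in MYC/REG3A mice 3 and 4 the tumour lay at the level of the liver. C4bp changed by -0.66 (SE 0.20, adjusted p = 0.0314 with limma) and by -0.38 (SE 0.20, adjusted p = 0.244). The C4bp call in MYC mice was lost in 4 of 18 other settings and left-out mice, where the adjusted p of limma reached 0.128. Cfi changed by -0.50 (SE 0.12, adjusted p = 0.00893) and by -0.44 (SE 0.12, adjusted p = 0.037). Its call in MYC/REG3A mice was lost in 9 of 19 other settings and left-out mice, where the adjusted p reached 0.159, among them the fit without the mouse block (adjusted p = 0.075).

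Of the 6 terminal components, which assemble into the pore, Hc fell in both genotypes and C8a in MYC mice. Hc levels were 11.69, 11.72, 12.21 and 12.20 in the non-tumour livers of MYC mice and 11.54, 11.19, 11.75 and 11.92 in their tumours. In MYC/REG3A mice they were 12.44, 11.69, 11.69 and 12.31 in non-tumour liver and 11.62, 11.47, 10.95 and 11.66 in tumours. Groups overlapped in MYC mice and were just separate in MYC/REG3A mice. Hc changed by -0.36 (SE 0.12, adjusted p = 0.0459 with limma) and by -0.61 (SE 0.12, adjusted p = 0.0159). The call in MYC mice was lost in 11 of 18 other settings and left-out mice, where the adjusted p reached 0.228.

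C8a, which encodes the alpha chain of C8, had the greatest mean change of the 34 genes in MYC mice and one of the widest spreads. Levels of C8a in MYC mice 1 to 4 were 9.33, 8.30, 10.56 and 10.49 in non-tumour liver and 5.43, 6.30, 8.05 and 9.53 in tumours. The livers of MYC/REG3A mice 1 to 4 had 11.38, 8.79, 7.64 and 10.97, and their tumours 9.37, 7.85, 7.96 and 9.70. Each MYC tumour lay below its own liver, but the tumour of mouse 4 lay above the livers of mice 1 and 2. C8a changed by -2.34 (SE 0.44, adjusted p = 0.00411 with limma), to 19.7% of the non-tumour level, and by -0.98 (SE 0.44, adjusted p = 0.169). Without the mouse block the MYC call was lost (adjusted p = 0.0613).

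The other terminal components passed no test. C8b had levels of 10.36, 9.38, 11.25 and 11.02 in the livers of MYC mice and of 11.59, 11.15, 11.15 and 11.37 in their tumours, and its changes were 0.81 (95% interval -0.13 to 1.75) and 0.38 (-0.56 to 1.32). C8g had changes of 0.04 and -0.03, and C9 of -0.38 and -0.03. C6 had the widest range over the 8 tumours, 4.78 against 4.27 for C8a, while their SDs were 1.53 and 1.54. In MYC/REG3A mice 1 to 4 C6 had levels of 7.86, 7.56, 5.55 and 10.33 in tumours, against 9.53, 8.45, 8.28 and 8.77 in non-tumour liver. The mean change of C6 in these mice was -0.93 (95% interval -2.14 to 0.27, adjusted p = 0.277 with limma). Without mouse 4 it was -1.76 with an adjusted p of 0.0245. C8b, C9 and C6 were singled out after their values were seen.

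**Figure D2:**
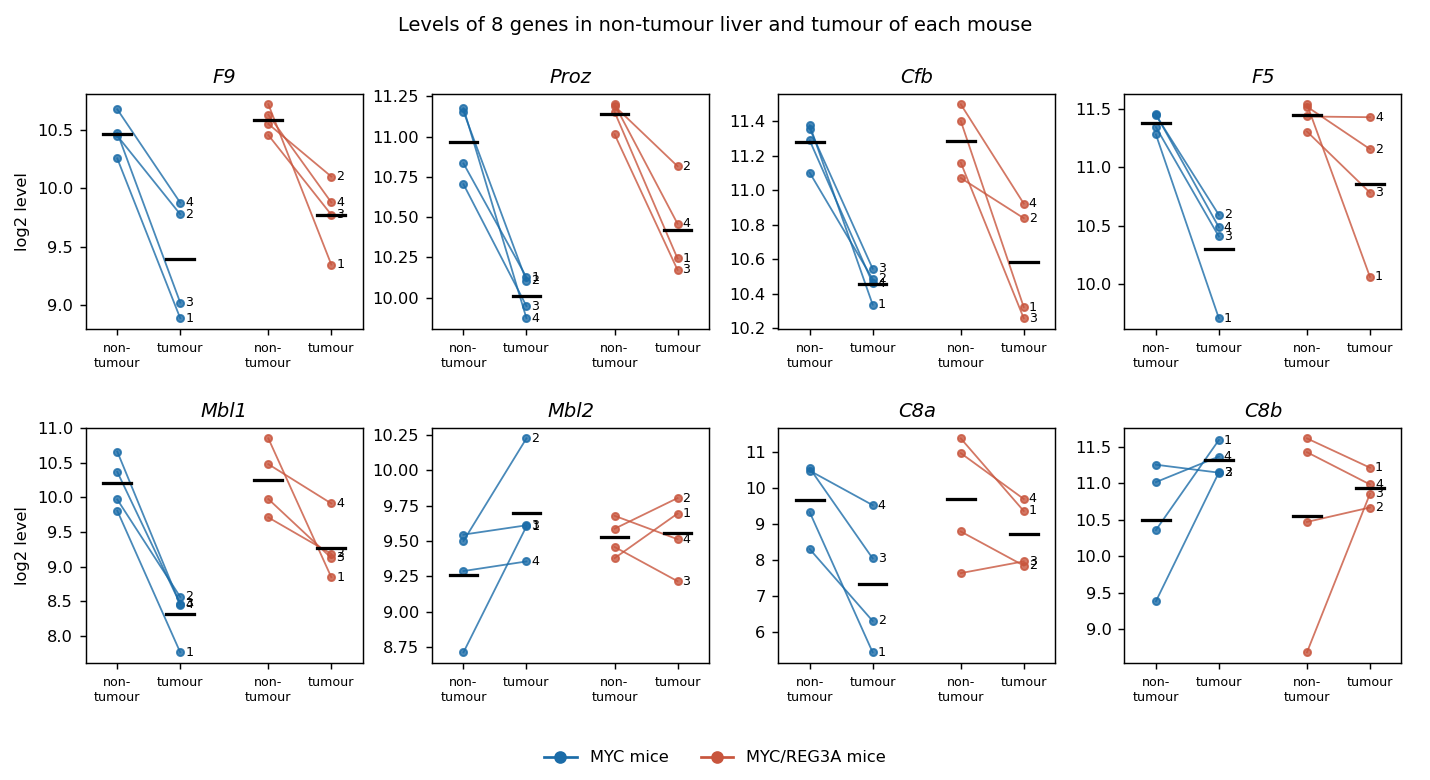
Log2 levels of 8 genes in non-tumour liver and tumour, with a line joining the samples of each mouse, mouse numbers at the tumour and short bars for the group means (n = 4). F9, Proz and Cfb fall along every line, and C8a falls in all 4 MYC mice (to 5.43 in mouse 1) while its neighbour C8b does not.

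Neighbouring genes did not always share a change. Of the 38 genes, 7 pairs lie next to each other with no other protein-coding gene between them, and both genes had a row in 6 of these pairs. On chromosome 4, the change of C8b exceeded that of C8a by 0.83 to 5.13 in 8 of 8 mice. Their directions were not opposite in every animal. Both fell in MYC mouse 3 and in MYC/REG3A mice 1 and 4, and both rose in MYC/REG3A mouse 3. On chromosome 8, F7, F10 and Proz lie in a row, and the change of F10 exceeded that of Proz by 0.15 to 0.97 in 8 of 8 mice. F10 exceeded F7 in 7 of 8 mice, by up to 0.44, and lay 0.10 below it in MYC/REG3A mouse 2. On chromosome 3, Fga lies between Fgg and Fgb. The change of Fgb minus that of Fga ran from -0.39 to 0.24, above 0 in 3 mice and below 0 in 5, and that of Fga minus that of Fgg from -0.25 to 0.34. Cfb and C2 on chromosome 17 were both called lower in both genotypes, and the change of C2 minus that of Cfb ran from -0.12 to 0.69, the latter in MYC mouse 3. These pairs were chosen after the values were seen and carry no test.

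**Figure D3:**
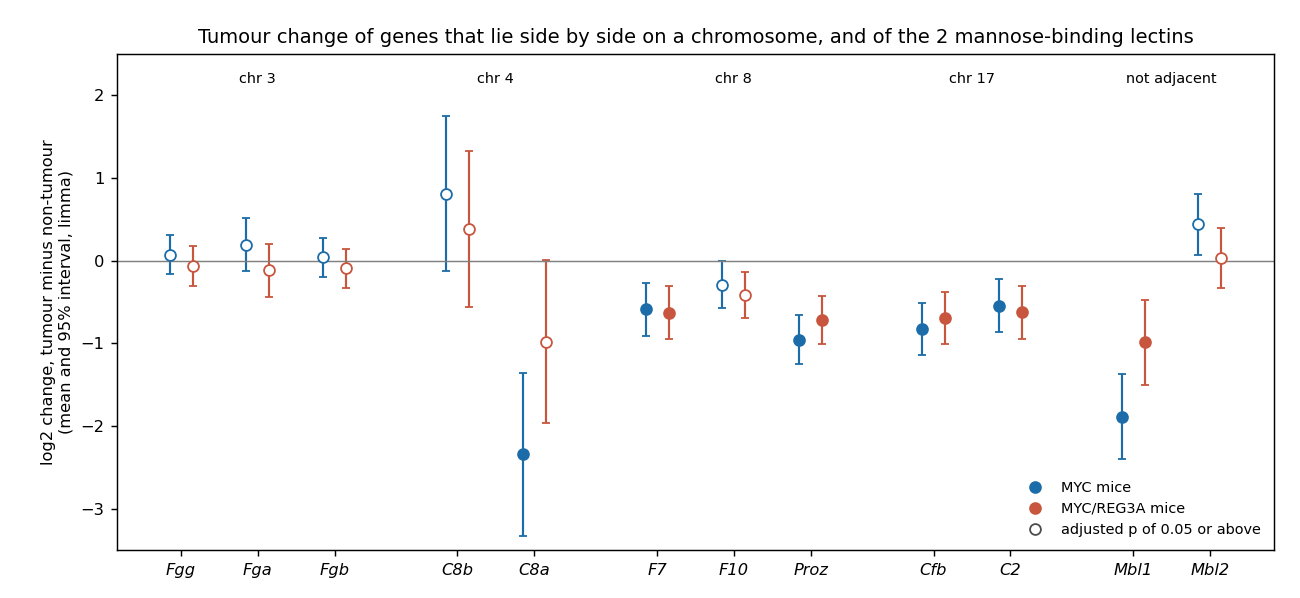
Mean change from non-tumour liver to tumour with its 95% interval from limma, for genes that lie side by side on chromosomes 3, 4, 8 and 17 and for Mbl1 and Mbl2, which are not neighbours (n = 4 mice per genotype). Filled points have an adjusted p below 0.05. C8a at -2.34 and C8b at 0.81 lie apart in MYC mice, as do Mbl1 at -1.89 and Mbl2 at 0.44, whereas the 3 fibrinogen genes lie near 0.

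The non-tumour livers themselves differed in level for some of the 34 genes. For 22 of the 34 genes the highest of the 8 non-tumour livers was that of MYC/REG3A mouse 1, and for 8 that of MYC/REG3A mouse 4. The lowest was MYC mouse 1 or MYC/REG3A mouse 3 for 11 genes each. The mean over the 34 genes ranged from 10.80 in MYC/REG3A mouse 3 to 11.39 in MYC/REG3A mouse 1. Levels spanned 3.75 for C8a, 2.93 for C8b, 1.75 for C6 and 1.63 for C9 over the 8 livers. The median span was 0.549 for the 34 genes and 0.508 for all tested genes. Only 6 of the 34 genes spanned more than 1. Called genes lay on both sides of the median of the 34 genes. F5 (0.257), C2 (0.371), Cfb (0.427), F9 (0.465), Proz (0.497) and Cfi (0.521) spanned less. C8a, F11 (1.22), Mbl1 (1.14), C4bp (0.906), Hc (0.752), F7 (0.675) and Serping1 (0.583) spanned more.

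The livers of MYC mice 3 and 4 and MYC/REG3A mice 1 and 4 held the 4 highest levels of Hc (12.20 to 12.44, against 11.69 to 11.72 in the other 4) and of C8a (10.49 to 11.38, against 7.64 to 9.33). C8b, C9, Mbl1 and C4bp had their 4 highest levels in these livers too. So did F2, F10, Fgb, Fgg, Serpinf2, Serping1, Pros1, Cfi and Vtn, while the remaining genes of the list did not. Acute phase genes outside the list, which the liver induces in inflammation, were high there as well: Orm2, an orosomucoid gene, had 12.74 to 13.26 in these 4 livers and 9.28 to 11.43 in the other 4. Orm1, Apcs, Hp and Itih3 split in the same way, but Saa2, a serum amyloid A gene, did not: MYC mouse 3 had 11.09 and MYC mouse 2, of the other 4, had 11.24. The split was not confined to acute phase genes. Pdia6, which is not counted among them here, had 9.16 to 9.49 in these 4 livers and 8.53 to 8.84 in the other 4. Dnajb11, Hyou1 and Pdia5, not counted among them either, also had their 4 highest levels in these livers. The genes and the 4 livers were picked after the values were seen, each genotype is on both sides, and no test was made. Since a change is taken against the liver of the same mouse, a high non-tumour level enters it directly. The median change of the 34 genes was -0.39 and -0.38 in MYC mice 3 and 4, and -0.61 and -0.35 in MYC/REG3A mice 1 and 4. In the other 4 mice it lay between -0.19 and -0.16.

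**Figure D4:**
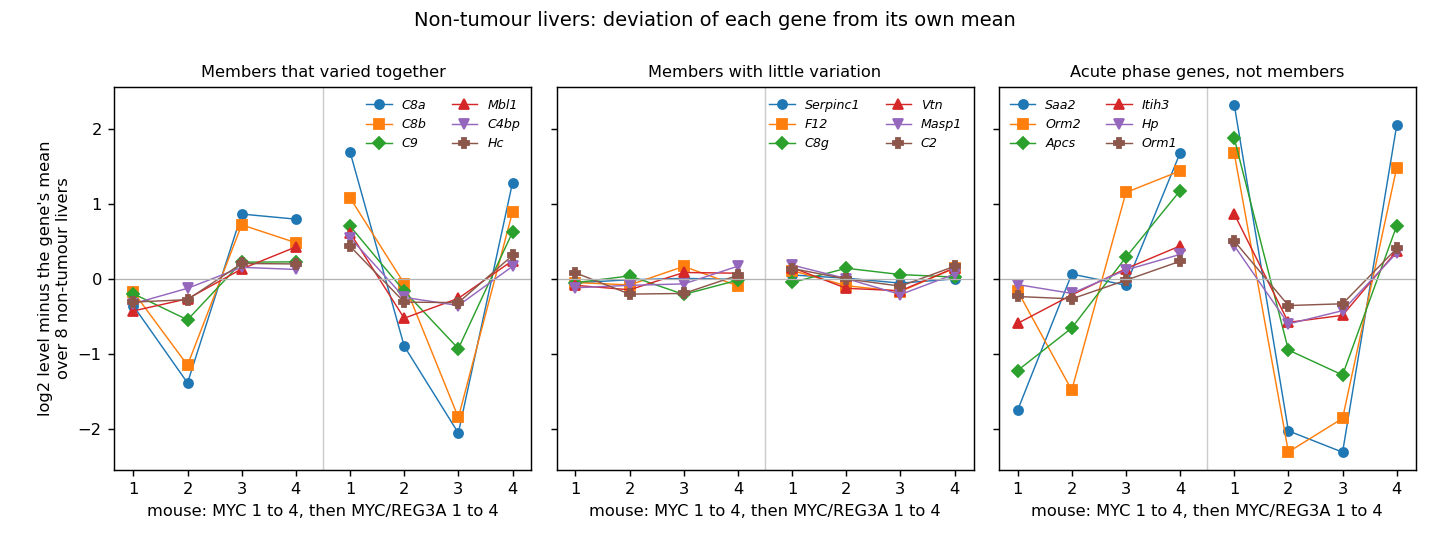
Deviation of the log2 level from the gene's own mean over the 8 non-tumour livers, for 6 genes of the list that varied together (left), 6 that varied little (middle) and 6 acute phase genes outside the list (right). Thin lines only join the points of a gene within a genotype. MYC mice 3 and 4 and MYC/REG3A mice 1 and 4 lie high on the left, where C8a spans 3.75, and also on the right, except that for Saa2 MYC mouse 3 (11.09) lies below MYC mouse 2 (11.24). In the middle, Vtn also has its 4 highest levels in these livers, though it spans only 0.308.

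The REG3A transgene was not accompanied by a called difference in any of the 34 genes. In non-tumour liver, MYC/REG3A minus MYC, 0 of the 34 genes passed with limma, as did 0% of all tested genes. At an unadjusted p below 0.05 there were 0 of the 34 and 739 of all, and for 0 of the 34 did the groups not overlap (all tested genes 1.61% higher and 2.27% lower). The median difference was 0.08, with 32 of the 34 genes above 0 (51.1% of all tested genes lay below 0). Without MYC/REG3A mouse 1, which held most of the highest values, the median was 0.0049, with 15 of the 34 genes below 0. In tumours 0 of the 34 passed with limma (0.0221% of all tested genes, 0.00738% higher and 0.0148% lower). At an unadjusted p below 0.05 there were 4 of the 34 and 1437 of all 13555 tested genes. The largest of these 4 in favour of MYC/REG3A were Mbl1 (0.96, 95% interval 0.36 to 1.55, adjusted p = 0.312) and F5 (0.56, 0.06 to 1.06, adjusted p = 0.443). Proz was higher by 0.41 (0.11 to 0.71, adjusted p = 0.356), and C6 had a difference of -1.50 (-2.98 to -0.02, adjusted p = 0.47).

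For Mbl1 and Proz the tumour groups of the genotypes did not overlap (1.63% of all tested genes had such groups with MYC/REG3A higher and 1.90% with it lower). Without the tumours that stood apart, MYC/REG3A mice 2 and 4, again 0 of the 34 genes passed. The test of the difference between the genotypes' tumour changes called 0 of the 34 genes with limma and 0.00738% of all. At an unadjusted p below 0.05 there were 2 of the 34, Mbl1 and Pros1, and 756 of all 13555 tested genes. The genotypes share no samples, but with 4 mice each the intervals were wide: that for C8a ran from -0.03 to 2.76, around a difference of 1.36.

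Other genes of both cascades, outside the list, were lower in tumours in part. Of 30 further coagulation and fibrinolysis genes 25 were tested, and 10 were lower and 0 higher in MYC mice, with 3 lower and 0 higher in MYC/REG3A mice. The shares of all tested genes that were lower were 15.8% and 4.88%. Ggcx, the carboxylase that modifies the vitamin K dependent factors, changed by -0.69 (SE 0.11, adjusted p = 0.00232 with limma) and by -0.67 (SE 0.11, adjusted p = 0.00938). F8, the cofactor of factor IX and a product of endothelial cells, changed by -1.02 (SE 0.16, adjusted p = 0.00199) and by -0.58 (SE 0.16, adjusted p = 0.0423). Mcfd2, which carries factors V and VIII out of the endoplasmic reticulum, changed by -0.55 and by -0.47. Tfpi, an inhibitor of the tissue factor route, fell by 0.60 in MYC mice and had a change of -0.26 (adjusted p = 0.163) in MYC/REG3A mice.

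Of 32 further complement genes 25 were tested. In MYC mice 12 were lower and 1 higher, and in MYC/REG3A mice 9 were lower and 0 higher. Over all tested genes, 15.8% were lower and 17.4% higher in MYC mice, and 4.88% and 7.58% in MYC/REG3A mice. The list overlaps with the cell markers counted below: Vsig4 is also a Kupffer cell marker there, and Colec11 a stellate cell marker. The lectin genes Fcna and Colec10 fell in both genotypes: Fcna changed by -2.30 and -1.63, and Colec10 by -1.998 and -2.05. C7, a terminal component, changed by -1.30 (adjusted p = 0.00128 with limma) and by -0.75 (adjusted p = 0.0296), and the C5a receptor gene C5ar2 changed by -0.72 and -0.69. C1rl fell in both genotypes, with changes of -0.96 (adjusted p = 0.0039) and -1.14 (adjusted p = 0.00713). The 1 higher gene was C4a with 1.51 (SE 0.36, adjusted p = 0.011), named after its value was seen. It is a near copy of C4b, so its value is uncertain. C4b had a change of -0.37 (adjusted p = 0.16).

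Markers of other liver cells moved with these changes. Of 10 markers each, 8 of Kupffer cells, 9 of sinusoidal endothelium and 7 of stellate cells were lower in MYC tumours, and 8, 7 and 5 in MYC/REG3A tumours. Of all tested genes, 15.8% and 4.88% were lower. The summed level of the Kupffer cell markers was 11.998 to 13.60 in MYC livers and 11.49 to 12.23 in MYC tumours, with overlap. In MYC/REG3A mice this summed level was 12.29 to 12.92 and 10.65 to 12.07. That of the endothelial markers was 12.17 to 12.96 and 11.28 to 11.70 in MYC mice, and in MYC/REG3A mice, where the groups overlapped, 12.01 to 12.39 and 11.002 to 12.07. That of the stellate markers was 12.36 to 13.06 and 11.04 to 11.57 in MYC mice, and 12.23 to 12.64 and 10.23 to 12.33, with overlap, in MYC/REG3A mice. No marker of these lists was below the lower quartile on all arrays. Of 11 tested hepatocyte markers 1, Fabp1, was lower in MYC tumours (-0.65, adjusted p = 0.00352 with limma) and 0 in MYC/REG3A tumours (Fabp1 -0.31, adjusted p = 0.106), and their summed level was 16.30 to 16.36 in non-tumour livers and 16.04 to 16.34 in tumours. Alb, the albumin gene, had changes of -0.16 (adjusted p = 0.187) and -0.09. Its levels of 13.26 to 13.57 lay near the highest values of any array row, where the scale can hide differences. The hepatocyte markers had group means of 12.61 to 12.81, so the same limit can apply to others of them. The labelled tissue thus carried its defining markers on every array. In such bulk samples fewer cells of a type and less RNA per cell cannot be told apart, and the part of cell composition in the changes was not tested.

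Cell cycle genes rose in tumours of both genotypes, 9 of 9 tested in each (17.4% and 7.58% of all tested genes were called higher). Levels of clock genes, which follow the time of day, also differed between samples. Their score was 0.318 and 1.30 in the liver and tumour of MYC/REG3A mouse 1, and -2.98 to -1.91 in the other MYC/REG3A samples. It was -0.265 and 1.61 in the liver and tumour of MYC mouse 4, and -2.15 to -0.585 in the other MYC samples. With this score as a covariate, 11 of the 34 genes were called in MYC mice (28.0% of all tested genes) and 3, Proz, Cfb and Hc, in MYC/REG3A mice (5.11% of all). The median change of the 34 genes in MYC/REG3A mice was -0.31 with and without the covariate. F9 had a change of -0.82 there with it (adjusted p = 0.0517), and C2 of -0.56 (adjusted p = 0.0678). In MYC mice, leaving out mouse 4 left 7 of the 13 calls (21.9% of all tested genes were called), F9, F5, Proz, Mbl1, Cfb, Cfi and C8a.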

How the data were processed

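Per the submitters' processing notes, the authors ran RMA with Affymetrix Expression Console 1.4.1, and they deposited log2 levels for 16 arrays in 4 groups of 4. Neither the RMA settings nor the log base is given in the sources used here, and base 2 is inferred from the values' range. RMA equalises the arrays' distributions, so changes are relative to the other genes, and no detection calls were used. The number of arrays limits the precision.

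Of 41345 rows, 23521 carried 1 gene symbol, 1814 several and 16010 none. A gene was tested if it exceeded the array median on at least 4 of 16 arrays. The tests used lmFit and eBayes of limma 3.58.1 under R 4.3.3, 2-sided, with Benjamini-Hochberg adjustment over 13555 genes. For tumour changes, and for their difference between genotypes, each mouse was a block: per the series' design text its samples come from 1 animal, and deviations within a mouse correlated at 0.0963 to 0.325. Genotypes were compared over the 4 group means. Intervals are 95% intervals of limma, and the scripts were tested on simulated data.

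Genes given with every value were, per tumour comparison, up to 8 that rose and 8 that fell most among those past the threshold and moving one way in all 4 mice, and for a group without one, that of lowest p. Of other lists, up to 4 genes of lowest p past the threshold per comparison could be named, besides F8, Hnf4a, Cebpa, Cebpb and Alb. The genes and lists were chosen with earlier results of these data known. Alternatives were the block, the filter, the scaling, the row rule, eBayes settings, a clock covariate, each mouse left out, and mice 2 and 4 of MYC/REG3A left out, which was added after the data were seen.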

Additional observations from a re-analysis of the deposited data

Results flagged for a closer look

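In 5 of 136 groups of 4 arrays, 1 sample lay farther from the others than a Dixon test at the 95% level allows; chance gives about 1 in 20 such groups. The tumour of MYC/REG3A mouse 2 had the highest F7 of its group, 10.36, with 9.81 next. The tumour of MYC/REG3A mouse 1 had the highest Fga (11.84, next 11.64) and the highest Fgg (13.09, next 12.96). The tumour of MYC mouse 1 had the lowest Mbl1, 7.77, with 8.46 next. The non-tumour liver of MYC mouse 2 had the lowest C6, 7.92, with 9.40 next.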

How the results depend on the processing

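No called change of the 34 genes reversed its direction in any setting. With 4 mice per genotype, the 95% intervals given with the genes bound what could be seen. Without the mouse block, 11 of the 34 genes were called in MYC mice (32.6% of all genes) and 8 in MYC/REG3A mice (11.9%); with the block as a random effect, 13 (35.96%) and 9 (15.4%). Without the block the calls of C8a and Hc in MYC mice and of Pros1, Cfi and Hc in MYC/REG3A mice were lost, and F10 gained one there (adjusted p = 0.0432). With the random block, Hc lost its call and Masp1 gained one (adjusted p = 0.0463) in MYC mice; in MYC/REG3A mice Pros1, Cfi and Hc lost theirs, and F10 (adjusted p = 0.0302) and F2 (adjusted p = 0.0395) gained one. F9, F5, Proz, Mbl1, Cfb and Cfi kept their call in MYC mice in 18 of 18 settings.

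Leaving out 1 mouse at a time gave 7 to 13 calls among the 34 genes in MYC mice (2975 to 4490 over all genes) and 0 to 10 in MYC/REG3A mice (273 to 1849 over all genes). Over all genes it gave 0 to 2 calls for the difference of the changes, 0 to 22 between genotypes in non-tumour liver and 3 to 114 in tumours. With the clock covariate, 3 of the 34 genes and 693 of all genes were called in MYC/REG3A mice, and 9 genes differed between the genotypes' tumours. The 1 gene called for the difference of the changes, which is not among the 34, gave 0 calls without the block, with no filter, with the strict filter, with quantile normalisation once more and without MYC/REG3A mice 2 and 4. Without these 2 mice, 0 genes differed between the tumours. The causes were not tested.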

Other observations

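Several transcription factors that control hepatocyte genes were lower in tumours. Of 21 such genes 19 were tested. In MYC mice 6 were lower and 0 higher, and in MYC/REG3A mice 3 were lower and 0 higher. Of all tested genes, 15.8% were lower in MYC mice and 4.88% in MYC/REG3A mice. Onecut1 (HNF6) fell by 2.47 on the log2 scale in MYC mice (SE 0.28, adjusted p = 0.000697 with limma) and by 0.99 in MYC/REG3A mice (SE 0.28, adjusted p = 0.0471). Its levels in the tumours of MYC/REG3A mice 1 to 4 were 6.64, 9.73, 8.90 and 8.76, with mouse 1 lowest, against 8.86, 9.98, 9.66 and 9.49 in their livers. Esr1, the estrogen receptor gene, changed by -1.85 and by -1.52. Foxa1 changed by -0.81 in MYC mice, with -0.16 (adjusted p = 0.362) in MYC/REG3A mice. Stat3 changed by -0.55 in MYC/REG3A mice, with -0.35 (adjusted p = 0.0558) in MYC mice.

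Hnf4a fell by 0.28 (SE 0.10, adjusted p = 0.0472 with limma) and Cebpb by 0.48 (SE 0.16, adjusted p = 0.0461) in MYC mice, both close to the threshold. In MYC/REG3A mice Hnf4a had a change of -0.19 (adjusted p = 0.208) and Cebpb of 0.11 (adjusted p = 0.689). Cebpa had changes of -0.07 (adjusted p = 0.708) and -0.35 (adjusted p = 0.101).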
